A study of Homo sapiens with 6 samples.

Results

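The genes described here are the NRF2-driven antioxidant genes together with the genes of glutathione, thioredoxin, pentose phosphate and ferritin biology. They were taken by name from a list of 45 symbols, and 43 of them were found among the 14959 genes of the table. GSTM1 and GSTM3 were not analysed here. RNA was sequenced from UM-SCC1, an immortal human line grown from a squamous carcinoma of the head and neck, 48 h after transfection. One group received mimics of miR-204-5p, which are synthetic double-stranded RNAs that a cell uses like the mature miRNA, and the other received control mimics (oligonucleotides meant to target no gene). Each group held 3 libraries from 3 independent experiments, and both groups share the line and the transfection. All cells came from this single line, so the p-values measure the spread between these experiments only.

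NRF2, encoded by NFE2L2, is the transcription factor that switches on detoxifying and antioxidant genes when a cell meets oxidants or electrophiles. KEAP1 holds NRF2 in the cytoplasm and sends it for degradation, and oxidants loosen that hold, so that NRF2 enters the nucleus and binds antioxidant response elements with a small MAF protein. Its known targets make glutathione, reduce quinones and carbonyls, recycle thioredoxin, supply NADPH and store iron in ferritin. In squamous carcinomas of the head and neck the pathway is often switched on by mutation of NFE2L2, KEAP1 or CUL3.

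The sequences below show what the mimic can pair with among these genes. The mature miR-204-5p sequence is printed as RefSeq gives it (GRCh38.p14, chr9:70810031-70810052, minus strand), with the seed, bases 2 to 8, in capitals. The oligonucleotide sequence of the mimic itself is not given in the sources used here. A miRNA lowers mRNAs mainly through pairing of its seed with the 3'UTR, and the letters searched were AAAGGGAA (8mer), AAAGGGA (7mer-m8) and AAGGGAA (7mer-A1), on the transcript strand of the longest 3'UTR that GENCODE 29 gives a gene, with a site that holds a longer match counted once as the longer kind. The capitals in the 3'UTR windows mark the match.
hsa-miR-204-5p: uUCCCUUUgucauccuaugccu
SRXN1 (8mer): agtccctggggAAAGGGAAcagagtaaggc
TXNRD1 (8mer): aagaaatgggaAAAGGGAAaaggagagagc
TKT (7mer-m8): gtcctgggggaAAAGGGAccctcaggatg
NQO1 (7mer-A1): gtttatggcagAAGGGAAttgctcagaga
AKR1C1 (7mer-A1): gaggaaatgagAAGGGAAtccaaatgtca
AKR1C2 (7mer-A1): gaggaaatgagAAGGGAAtccaaatgtca
GCLM (7mer-A1): agaaacataggAAGGGAAaatgttttaat

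These 7 genes are the members whose longest 3'UTR holds a match of 7 or more bases. Where all annotated 3'UTRs were searched, SQOR was added with a 7mer-m8, making 8. Positions are on GRCh38. The match of SRXN1 lies in exon 2 at chr20:647057-647064 (minus strand), that of TXNRD1 in exon 15 at chr12:104349948-104349955 (plus strand), and that of TKT in exon 14 at chr3:53225167-53225173 (minus strand). The match of NQO1 lies in exon 6 at chr16:69710589-69710595 (minus strand), outside the shorter transcript that the table lists for NQO1. AKR1C1 and AKR1C2 hold the same 29 bases, in exon 9 at chr10:4980243-4980249 (plus strand) and in exon 9 at chr10:4987493-4987499 (minus strand). The match of GCLM lies in exon 7 at chr1:93885465-93885471 (minus strand).

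The second sequence is the start region of GCLM, which encodes the modifier subunit of the enzyme that begins glutathione synthesis. It runs from 250 bases before to 50 after the start of transcription (RefSeq, GRCh38.p14, chr1:93909381-93909680, minus strand). The capitals mark the letters TGACNNNGC, the core of an antioxidant response element, here on the reverse strand and 34 bases before the start.
GCLM promoter: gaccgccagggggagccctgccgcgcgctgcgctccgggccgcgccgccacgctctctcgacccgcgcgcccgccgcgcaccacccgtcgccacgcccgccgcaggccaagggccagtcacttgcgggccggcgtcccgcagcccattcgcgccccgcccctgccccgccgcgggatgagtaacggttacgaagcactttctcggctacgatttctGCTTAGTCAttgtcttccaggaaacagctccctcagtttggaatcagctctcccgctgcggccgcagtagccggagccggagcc

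The deposited values are FPKM, which divide the fragments of a gene by the length of its transcript and by the depth of the library, with 1 value per gene and library. Log2 fold changes are differences of log2(FPKM + 1), miR-204-5p mimics over control mimics, tested with limma and adjusted over all 14959 genes by the Benjamini-Hochberg method; a gene passed the test at an adjusted p under 0.05. On this scale the change of a gene with few FPKM comes out too small, so the ratio of mean FPKM is given beside the lowest genes that changed. Depth inferred from the steps between low values was 13.1, 16.0 and 15.6 M fragments (1e6) with miR-204-5p mimics and 14.1, 13.9 and 16.4 M with control mimics. Across genes, FPKM of libraries of the same group had a Spearman correlation of 0.990 to 0.991, and those of different groups 0.973 to 0.976. In bulk RNA, fewer cells of a kind and less RNA per cell cannot be told apart. The 9 squamous epithelial markers examined were all present, from 0.970 to 357 FPKM. They also moved with the groups: 8 of 9 passed the test (88.9%, against 40.8% of all genes). Of these, 5 were lower (55.6%, against 16.8%) and 3 higher (33.3%, against 23.9%). The summed FPKM of the 9 was 873 to 968 with miR-204-5p mimics and 997 to 1031 with control mimics. Of 4 fibroblast markers analysed 2 passed as higher (50%, against 23.9% of all genes). Their sum was 9.81 to 11.6 FPKM against 8.58 to 9.41 in controls, nearly all of it COL1A1. Of 5 immune markers 1, CD14, passed as lower (20%, near the 16.8% of all genes). The sum of the 5 was 13.1 to 14.96 against 17.1 to 18.4 FPKM, while PTPRC stayed at or under 0.546. Of 4 endothelial markers 1 passed as higher (25%, near the 23.9% of all genes), and none exceeded 0.498 FPKM. The part of these differences in the results was not tested.

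The antioxidant and glutathione genes moved in both directions. Of 43 genes, 21 (48.8%) passed the test, where 40.8% of all genes did. Lower values with miR-204-5p mimics were found for 13 genes (30.2%, against 16.8% of all genes) and higher values for 8 (18.6%, against 23.9%). For 26 genes (60.5%), 17 lower and 9 higher, the groups lay fully apart in FPKM, against 53.6% of all genes. A mean of at least 1 FPKM was reached by 40 of the 43 genes, and all 21 genes that passed were among them (52.5%, against 47.8% of genes at that level).

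The lower genes were led by aldo-keto reductases, sulfiredoxin, NQO1 and transketolase, and the higher genes by PRDX6, TALDO1, GPX8 and GSR. The median log2 fold change was −0.11 over the 43 genes and 0.03 over all genes, which describes the list and tests nothing. Among genes that passed, the median size of the log2 fold change was 0.37, as it was for all genes that passed. Together the 43 genes took 1.60% to 1.69% of the summed FPKM with miR-204-5p mimics and 1.78% to 1.85% with control mimics.

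**Figure D1:**
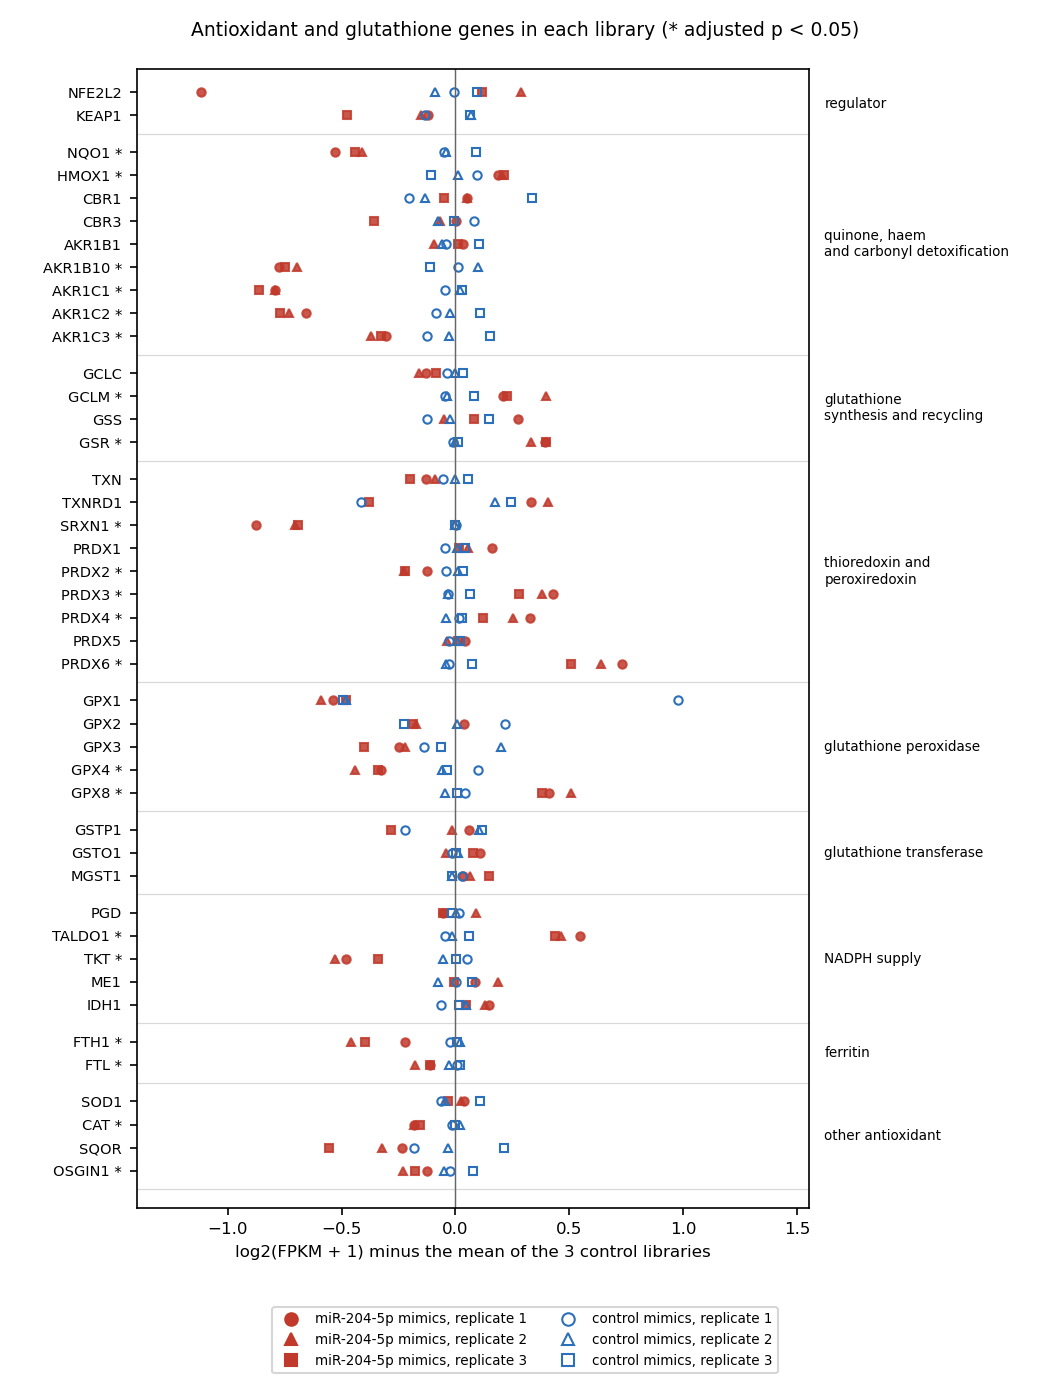
Each gene in each library, as log2(FPKM + 1) minus the mean of the 3 control libraries, with genes ordered by role and an asterisk where the limma adjusted p is under 0.05. Filled red symbols are miR-204-5p mimics, open blue symbols are control mimics, and the symbol shape gives the replicate. AKR1B10, AKR1C1, AKR1C2 and SRXN1 show 3 red symbols well to the left of the blue ones, and PRDX6 and TALDO1 show them to the right. In NFE2L2 and GPX1, 1 library lies far from the others.

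The regulators themselves gave no call. Neither NFE2L2 nor KEAP1 passed the limma test, and neither had an unadjusted p under 0.05. NFE2L2 (chr2:177227595-177232487) had 6.11, 17.8 and 15.7 FPKM with miR-204-5p mimics and 14.3, 13.5 and 15.5 FPKM with control mimics. The first library lay far below all others. The remaining libraries with miR-204-5p mimics lay slightly above every control, at 15.7 FPKM or more against 15.5 or less. The log2 fold change was −0.24 (SE 0.35, 95% interval −1.08 to 0.61, limma adjusted p = 0.632). Without miR-204-5p mimics replicate 1 it was 0.20 and did not pass either (limma adjusted p = 0.111). The transcript listed for NFE2L2 has 455 bases, against 2853 for its longest coding transcript. At the listed length the values come to about 36.4 to 129 fragments, and whether FPKM was computed on that length is not given. The 95% interval of NFE2L2 spans both a fall and a rise, so no direction of change can be given for its mRNA. KEAP1 (chr19:10486120-10503741) had 24.2, 23.7 and 18.7 FPKM with miR-204-5p mimics and 23.9, 27.7 and 27.6 FPKM with control mimics. The groups overlapped, with a log2 fold change of −0.25 (95% interval −0.51 to 0.01, limma adjusted p = 0.114). Neither gene holds a seed match in its longest 3'UTR.

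The enzymes of quinone, haem and carbonyl detoxification were the group with the most lower genes by number, though the groups differ in size. Of 9 genes, 5 fell (55.6%, against 16.8% of all genes) and 1 rose (11.1%, against 23.9%). The close copies AKR1C1 and AKR1C2 are among the 5. NQO1 (chr16:69706996-69726506), the quinone reductase often used as the readout of NRF2 activity, had 86.9, 94.4 and 92.5 FPKM with miR-204-5p mimics and 121.7, 122.4 and 134.0 FPKM with control mimics. All 3 libraries with miR-204-5p mimics lay below all 3 controls, and NQO1 fell by 0.46 on the log2 scale (SE 0.053, limma adjusted p = 0.000928), with a ratio of means of 0.724. HMOX1, haem oxygenase 1, went the other way, with 10.01, 10.1 and 10.2 FPKM against 9.35, 8.77 and 7.99. The groups did not overlap, and the log2 fold change was 0.20 (limma adjusted p = 0.0426). This call held with control mimics replicate 1 left out (0.0294) and was lost with any of the other five libraries left out (limma adjusted p 0.0849 to 0.102).

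Of the 5 aldo-keto reductases, which reduce aldehydes and ketones, 4 fell, where 16.8% of all genes did. AKR1C1 had the largest drop of the whole list. AKR1C1 (chr10:4963253-4983283) had 0.663, 0.664 and 0.587 FPKM with miR-204-5p mimics and 1.79, 1.92 and 1.94 with control mimics. The mean was 0.339 times the control mean, with a log2 fold change of −0.82 (SE 0.053, limma adjusted p = 0.000133). AKR1C2 (chr10:4987400-5004023) had 0.705, 0.621 and 0.577 FPKM against 1.54, 1.64 and 1.90. In both genes the libraries with miR-204-5p mimics all lay below the controls, at no more than 0.705 FPKM against at least 1.54. For AKR1C2 the ratio of means was 0.375 and the log2 fold change −0.72 (SE 0.069, limma adjusted p = 0.000473).

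AKR1B10 (chr7:134527592-134541408) had 0.843, 0.947 and 0.875 FPKM with miR-204-5p mimics and 2.17, 2.38 and 1.92 with control mimics. Again the groups lay apart, with a ratio of means of 0.412 and a log2 fold change of −0.74 (SE 0.070, limma adjusted p = 0.000464). AKR1C3 fell by 0.33 on the log2 scale (3.77 ± 0.111 against 5.03 ± 0.588 FPKM, SD, n = 3, limma adjusted p = 0.0181). That call was lost without miR-204-5p mimics replicate 2 (limma adjusted p = 0.0601). The levels behind these drops are low: about 58.2 to 71.0 fragments for AKR1C1 with miR-204-5p mimics against 169 to 213 with control mimics, 33.9 to 37.2 against 81.1 to 116.8 for AKR1C2, and 17.5 to 24.0 against 48.6 to 52.7 for AKR1B10.

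The AKR1C genes are close copies of each other. The coding sequences of AKR1C1 and AKR1C2 have 969 bases each and differ at 19 of them (98.0% identical), and AKR1C3 is 91.4% identical to AKR1C1 and 91.0% to AKR1C2. How fragments were divided among them is not given in the sources used here, so the split between AKR1C1 and AKR1C2 is uncertain. AKR1B1, the polyol pathway enzyme, is 75.2% identical to AKR1B10 in its coding sequence and overlapped between groups at 45.9 ± 2.20 and 46.5 ± 2.97 FPKM (SD, n = 3), at a log2 fold change of −0.02 and an adjusted p of 0.849 in limma. The carbonyl reductases CBR1 and CBR3 did not pass the test either (log2 fold changes 0.02 and −0.14). CBR1 was at 23.4 to 28.1 FPKM in 5 libraries and at 34.5 in control mimics replicate 3, and without that library its log2 fold change was 0.19 (limma adjusted p = 0.0449).

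Of the 4 genes of glutathione synthesis and recycling, 2 rose (50%, against 23.9% of all genes) and none fell (against 16.8%). GSR, glutathione reductase, which turns oxidised glutathione back into its reduced form, had 23.4, 22.3 and 23.4 FPKM with miR-204-5p mimics and 17.4, 17.5 and 17.7 with control mimics. The controls were almost equal and all 3 other libraries lay above them, a log2 fold change of 0.37 (SE 0.038, limma adjusted p = 0.000605) with a ratio of means of 1.31. GCLM (chr1:93885205-93909410), whose promoter and 3'UTR match are printed above, had 10.1, 11.6 and 10.2 FPKM against 8.26, 8.33 and 9.11. The groups did not overlap, and the log2 fold change was 0.28 (SE 0.070, limma adjusted p = 0.0203). It passed without replicate 1 or 3 of the miR-204-5p mimics or replicate 3 of the control mimics, and did not pass without miR-204-5p mimics replicate 2 or without replicate 1 or 2 of the control mimics (limma adjusted p 0.0504 to 0.0648).

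GCLC, the catalytic partner of GCLM, had 8.46, 8.26 and 8.75 FPKM with miR-204-5p mimics and 9.09, 9.34 and 9.60 with control mimics. The groups did not overlap and lay in the opposite order to those of GCLM, but the log2 fold change of −0.12 did not pass the test (95% interval −0.24 to −0.01, limma adjusted p = 0.0837). It passed as lower where libraries were scaled to equal sums (0.0421) or equal medians (0.0483). GSS, glutathione synthetase, overlapped between groups at 24.8 ± 2.95 and 23.0 ± 2.30 FPKM (SD, n = 3, limma adjusted p = 0.465).

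Of the 9 thioredoxin and peroxiredoxin genes, 2 fell (22.2%, against 16.8% of all genes) and 3 rose (33.3%, against 23.9%). SRXN1 (chr20:646615-653370), sulfiredoxin, which repairs over-oxidised peroxiredoxins and carries an 8mer in its 3'UTR, had 11.1, 12.6 and 12.8 FPKM with miR-204-5p mimics and 21.3, 21.2 and 21.2 with control mimics. The controls were nearly identical, the groups lay far apart, and the ratio of means was 0.574. SRXN1 fell by 0.76 on the log2 scale (SE 0.058, limma adjusted p = 0.000220).

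PRDX6 (chr1:173477266-173488807), a peroxiredoxin that also reduces phospholipid hydroperoxides, had 221, 208 and 189 FPKM with miR-204-5p mimics and 130.1, 129.0 and 139.7 with control mimics. The lowest library with miR-204-5p mimics lay well above the highest control, and the log2 fold change of 0.63 (SE 0.065, limma adjusted p = 0.000655) was the largest increase of the list. PRDX3, the mitochondrial peroxiredoxin, had 187, 181 and 169 FPKM against 136, 136 and 145. It lay apart in the same direction, with a log2 fold change of 0.36 (SE 0.052, limma adjusted p = 0.00218). PRDX4, which acts in the endoplasmic reticulum, rose from 20.7 ± 0.548 to 24.6 ± 1.84 FPKM (SD, n = 3), at a log2 fold change of 0.24 and an adjusted p of 0.0208 in limma. The PRDX4 call was lost without replicate 1 or replicate 2 of either group (limma adjusted p 0.0520 to 0.0681).

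PRDX2, a cytosolic peroxiredoxin, fell from 183 ± 4.92 to 161 ± 6.44 FPKM (SD, n = 3), at a log2 fold change of −0.19 and an adjusted p of 0.0126 in limma. The PRDX2 call was lost with the replicate number as a block (limma adjusted p = 0.0548). PRDX1 and PRDX5 did not pass the test, at log2 fold changes of 0.08 (95% interval −0.04 to 0.20) and 0.01 (−0.08 to 0.09). TXN, thioredoxin itself, had 250, 257 and 238 FPKM with miR-204-5p mimics and 263, 273 and 283 with control mimics. The groups lay apart, but the log2 fold change of −0.14 missed the threshold (limma adjusted p = 0.0525). It passed as lower among genes of mean FPKM 1 or more (0.0402) and under equal sums (0.0139), equal medians (0.0353) and quantile normalization (0.00926). TXN has 7 and PRDX2 and PRDX3 each have 4 annotated pseudogenes, none of them among the rows of the table, so fragments of copies may be included.

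TXNRD1 (chr12:104215779-104350283), thioredoxin reductase 1, carries an 8mer as SRXN1 does. It had 71.6, 75.5 and 43.5 FPKM with miR-204-5p mimics and 42.3, 64.2 and 67.4 with control mimics. One library of each group lay far below the others, the groups overlapped, and the log2 fold change was 0.12 (SE 0.26, 95% interval −0.50 to 0.73, limma adjusted p = 0.748). It ranged from −0.089 to 0.37 as single libraries were left out. EID3 overlaps TXNRD1 on the same strand at 1.02 to 1.89 FPKM.

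**Figure D2:**
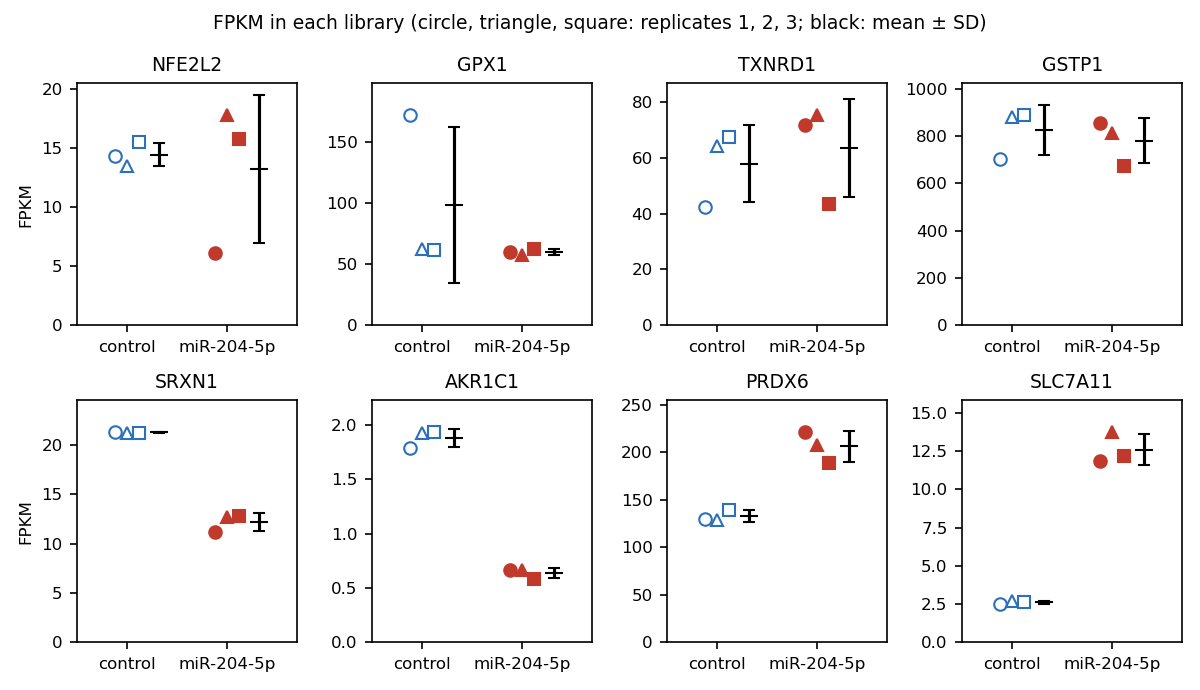
FPKM of 8 genes in each library, with open symbols for control mimics, filled symbols for miR-204-5p mimics and black bars for the mean ± SD of 3 libraries. NFE2L2, GPX1 and TXNRD1 each hold a library far from the rest of its group and GSTP1 spreads alike in both groups, while SRXN1, AKR1C1, PRDX6 and SLC7A11 separate the groups completely.

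Among the 5 glutathione peroxidases, 1 fell (20%, against 16.8% of all genes) and 1 rose (20%, against 23.9%). GPX4 (chr19:1103926-1106787), which reduces lipid hydroperoxides in membranes and protects cells from ferroptosis, had 124, 114 and 123 FPKM with miR-204-5p mimics and 167, 149 and 152 with control mimics. All 3 libraries with miR-204-5p mimics lay below the controls (log2 fold change −0.37, SE 0.056, limma adjusted p = 0.00286). GPX8, a peroxidase of the endoplasmic reticulum, had 10.3, 11.1 and 10.1 FPKM against 7.75, 7.23 and 7.55, and rose (log2 fold change 0.43, SE 0.056, limma adjusted p = 0.00144).

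GPX1, the abundant cytosolic peroxidase, had 59.8, 57.7 and 62.3 FPKM with miR-204-5p mimics and 172.6, 62.2 and 61.6 with control mimics. Control mimics replicate 1 was 2.80 times the lowest control, and the other five libraries overlapped. Its log2 fold change of −0.54 (SE 0.38, limma adjusted p = 0.313) became −0.047 without that library. GPX2 and GPX3 were under 1 FPKM in every library. GPX3 had 0.328, 0.350 and 0.194 FPKM against 0.435, 0.808 and 0.509, with groups apart but a limma adjusted p of 0.0543 and a ratio of means of 0.498. It passed under 4 of the 12 alternatives that included it, among them quantile normalization (0.0299) and without control mimics replicate 1 (0.0419). Its values rest on about 5.30 to 9.80 fragments with miR-204-5p mimics and 10.8 to 19.8 with control mimics. GPX2 comes to at most 12.5 fragments at the length of its listed transcript, which is annotated as a target of nonsense-mediated decay (limma adjusted p = 0.523).

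The 3 glutathione transferases measured, which join glutathione to electrophiles, gave no call with limma and none at an unadjusted p under 0.05. GSTP1 (chr11:67583595-67586656) was the most abundant gene of the list per length, with 856, 812 and 675 FPKM with miR-204-5p mimics and 703, 883 and 891 with control mimics. Each group held 1 lower library, and the difference was small beside that spread (log2 fold change −0.08, 95% interval −0.38 to 0.22, limma adjusted p = 0.650). GSTO1 had 72.6 ± 3.98 and 70.1 ± 0.721 FPKM (SD, n = 3, limma adjusted p = 0.439). At its listed transcript length MGST1 came to less than 1 fragment per library, so nothing about it was detectable at this depth.

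In the supply of NADPH, the cofactor that reduces both glutathione and thioredoxin, the 2 enzymes that shuttle sugars in the non-oxidative pentose phosphate pathway went opposite ways. TKT (chr3:53224707-53256031), transketolase, had 198, 192 and 219 FPKM with miR-204-5p mimics and 287, 267 and 278 with control mimics. TALDO1 (chr11:747329-765024), transaldolase, had 152, 144 and 141 FPKM against 101, 103 and 108. Neither gene overlapped between groups. TKT fell by 0.45 on the log2 scale (SE 0.058, limma adjusted p = 0.00146), with a ratio of means of 0.732, and TALDO1 rose by 0.48 (SE 0.046, limma adjusted p = 0.000459), with a ratio of means of 1.40. PGD, ME1 and IDH1, which make NADPH directly, did not pass the test, with log2 fold changes of −0.0046 (95% interval −0.12 to 0.11), 0.09 (−0.07 to 0.24) and 0.11 (−0.01 to 0.22).

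Both ferritin subunits, which store iron, fell, where 16.8% of all genes did. FTH1 (chr11:61959718-61967631), the heavy chain, had 589, 499.9 and 521 FPKM with miR-204-5p mimics and 675, 696 and 689 with control mimics. The highest library with miR-204-5p mimics lay below the lowest control, a log2 fold change of −0.36 (SE 0.065, limma adjusted p = 0.00578). FTL, the light chain, had 698, 665 and 697 FPKM against 757, 739 and 763. It also lay apart, with a smaller log2 fold change of −0.13 (SE 0.039, limma adjusted p = 0.0359). The FTL call held only without miR-204-5p mimics replicate 1 and was lost with any of the other five libraries left out (limma adjusted p 0.0507 to 0.113). The summed FPKM of the pair was 1224 ± 60.9 with miR-204-5p mimics against 1439.9 ± 10.9 with control mimics (SD, n = 3). FTH1 has 25 and FTL 16 annotated pseudogenes, none of them among the rows of the table, so fragments of copies may be included in both values.

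Of the 4 remaining antioxidant genes, 2 fell (50%, against 16.8% of all genes). CAT, catalase, had 32.1, 32.1 and 32.7 FPKM with miR-204-5p mimics and 36.2, 37.0 and 36.5 with control mimics. The spread within each group was small beside the gap (log2 fold change −0.17, SE 0.032, limma adjusted p = 0.00641). OSGIN1, an oxidative stress induced growth inhibitor, fell from 9.86 ± 0.506 to 8.61 ± 0.356 FPKM (SD, n = 3), at a log2 fold change of −0.18 and an adjusted p of 0.0469 in limma. That call was lost with each of the 6 libraries left out in turn (limma adjusted p 0.0554 to 0.129). SOD1, the cytosolic superoxide dismutase, had 140.4 ± 3.75 and 139.6 ± 9.34 FPKM (SD, n = 3, log2 fold change 0.01, 95% interval −0.12 to 0.14).

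SQOR, the mitochondrial sulfide quinone reductase, had 14.1, 13.2 and 11.1 FPKM with miR-204-5p mimics and 14.7, 16.4 and 19.6 with control mimics. The groups did not overlap, but the log2 fold change of −0.37 (SE 0.12) missed the threshold with limma (adjusted p = 0.0508), and it passed under 6 of 13 alternatives, among them equal sums (0.0291) and without control mimics replicate 1 (0.0364). AC090527.2 overlaps SQOR on the same strand and had 9.01 FPKM in miR-204-5p mimics replicate 3, the library with the lowest SQOR, and at most 0.0943 FPKM elsewhere. Its part in the SQOR value was not tested.

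**Figure D3:**
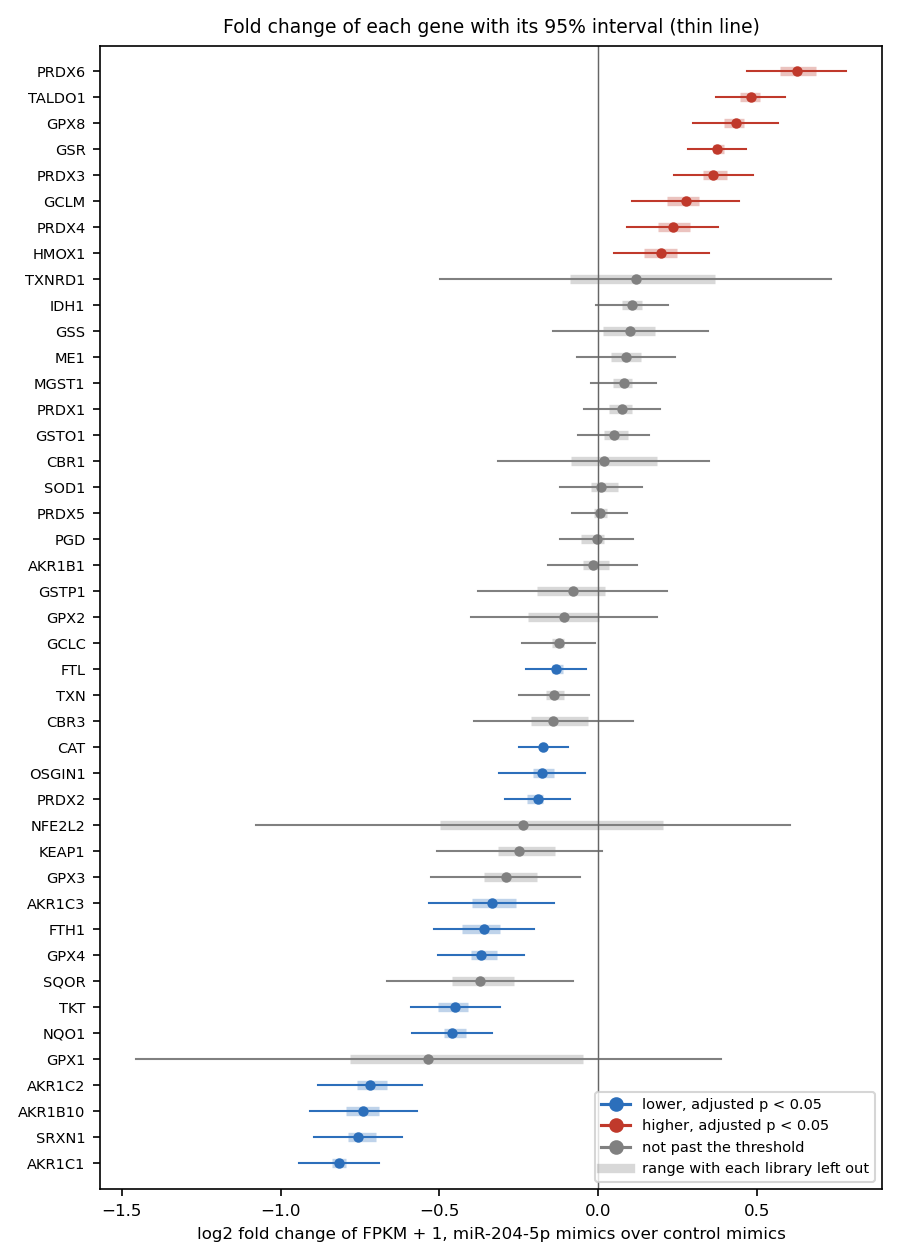
Log2 fold change of FPKM + 1 for each of the 43 genes, miR-204-5p mimics over control mimics, with the 95% interval from limma as a thin line and the range of the estimates with each library left out as a thick pale bar. Blue and red mark limma adjusted p under 0.05. The 13 lower genes run from −0.82 (AKR1C1) to −0.13 (FTL) and the 8 higher genes from 0.20 (HMOX1) to 0.63 (PRDX6), while NFE2L2, GPX1 and TXNRD1 have the widest intervals.

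Calls that held with any library left out were 15 of the 21. These were NQO1, AKR1B10, AKR1C1, AKR1C2, SRXN1, PRDX2, GPX4, TKT, FTH1 and CAT among the lower genes and GSR, PRDX3, PRDX6, GPX8 and TALDO1 among the higher genes.

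The genes with a seed match were mostly lower. Of the 7 members with a match of at least 7 bases, 5 (SRXN1, TKT, NQO1, AKR1C1 and AKR1C2) passed the test as lower, GCLM passed as higher, and TXNRD1 did not pass. The median log2 fold change was −0.46 for these 7 genes and −0.05 for the 36 members without a match. Of those 36 members, 8 passed as lower and 7 as higher, so AKR1B10, GPX4, FTH1, CAT and 4 others fell without such a match in the longest 3'UTR. A match was found in 16.3% of the members and in 27.1% of 14664 genes with an annotated 3'UTR. The members' 3'UTRs were shorter, with a median of 616 bases against 1251.5. Among all genes, 33.5% of those with an 8mer, 25.5% with a 7mer-m8, 22.3% with a 7mer-A1 and 13.5% with none passed as lower. AKR1C1 and AKR1C2 share the window and near-identical sequence, so they do not count as separate cases.

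Of the members whose promoters held the letters of the antioxidant response element, GCLM passed the test in the RNA comparison and 7 did not. Of all genes, 40.8% passed. RefSeq gave a promoter for 36 of the 45 listed names, and TGACNNNGC, searched on both strands, was found in 9 of them (25.0%), against 13.6% of 27305 promoters of the same 300 bases and 14.8% of those of genes in the table. The 9 genes were CBR1, GCLM, GPX2, GSTM1, GSTO1, GSTP1, ME1, PGD and TXNRD1. GSTM1 was not analysed in the RNA comparison. None of the 11 lower genes with a promoter in the table held the letters within this window, and 1 of the 5 higher genes did. At a share of 14.8% among genes of the table, few matches would be found in so few genes, and the difference was not tested. Where the fourth letter was left free (TGANNNNGC, which contains the first motif), 18 of 36 members held a match, against 42.1% of all promoters, with 6 of the 11 lower genes and 2 of the 5 higher genes among them.

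**Figure D4:**
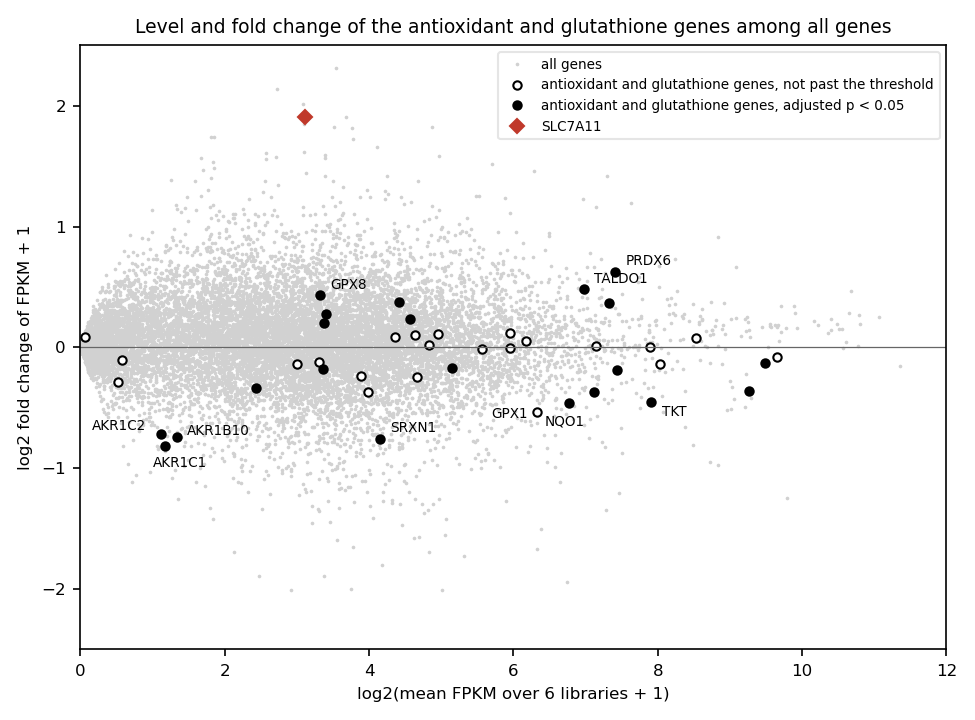
Log2 fold change of each gene against its level, the log2 of its mean FPKM over 6 libraries plus 1, for all 14959 genes (grey), the 43 antioxidant and glutathione genes (circles, filled where the limma adjusted p is under 0.05) and SLC7A11 (red diamond); 3 genes lie outside the vertical axis. AKR1C1, AKR1C2 and AKR1B10 sit at the low end of the level axis, PRDX6, TALDO1 and TKT near its high end, and SLC7A11 lies far above all 43 genes at 1.91.

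The other genes of these pathways were taken from a list of 59 names, of which all 59 were measured. With limma, 27 of them (45.8%, against 40.8% of all genes) passed the test. Lower values were found for 10 (16.9%, against 16.8% of all genes) and higher values for 17 (28.8%, against 23.9%). Among 11 partners and degraders of NRF2, 2 fell (18.2%) and 2 rose (18.2%). Of the small MAF proteins, which pair with NRF2 on DNA, MAFG fell from 16.2 ± 1.84 to 11.8 ± 0.962 FPKM and MAFK rose from 14.5 ± 0.856 to 20.6 ± 0.594 FPKM (SD, n = 3). The log2 fold changes were −0.42 and 0.48, with adjusted p of 0.0120 and 0.000815 in limma. MAFF, also a small MAF, did not pass (log2 fold change 0.69, limma adjusted p = 0.153). Its groups lay apart, with control mimics replicate 1 at 5.76 FPKM. PGAM5, a mitochondrial phosphatase that binds KEAP1, rose from 13.4 ± 0.993 to 26.1 ± 0.525 FPKM, at a log2 fold change of 0.92 and an adjusted p of 0.000122 in limma. CUL3, the scaffold of the KEAP1 ubiquitin ligase, fell (log2 fold change −0.29, limma adjusted p = 0.0394), and that call held without miR-204-5p mimics replicate 2 and was lost with any of the other five libraries left out (0.0524 to 0.116). MAFG and CUL3 each hold an 8mer in the 3'UTR. Elsewhere among the 59 genes, 8mers lay in genes that fell and in genes that did not pass. The latter had log2 fold changes of 0.05, 0.08 and −0.13.

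All 10 of the 20 other glutathione genes that passed were higher (50%, against 23.9% of all genes). SLC7A11 (chr4:138164097-138242349), the cystine importer that feeds glutathione synthesis, had 11.9, 13.8 and 12.2 FPKM with miR-204-5p mimics and 2.50, 2.70 and 2.65 with control mimics. The groups lay far apart, and its log2 fold change of 1.91 (SE 0.070, limma adjusted p = 2.96e-05) exceeded that of each of the 43 members, although its 3'UTR holds a 7mer-m8. ETHE1, the mitochondrial persulfide dioxygenase, rose by 0.48 on the log2 scale (limma adjusted p = 0.000581). CHAC2, which degrades glutathione, rose by 0.44 (limma adjusted p = 0.0347), a call that held without miR-204-5p mimics replicate 3 and was lost with any of the other five libraries left out (0.0586 to 0.0913).

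All 4 of the 8 other thioredoxin and superoxide genes that passed were lower (50%, against 16.8% of all genes). SESN2, a sestrin that responds to stress, fell from 16.1 ± 0.312 to 10.6 ± 0.115 FPKM (SD, n = 3), at a log2 fold change of −0.56 and an adjusted p of 0.000175 in limma. TXNIP, the inhibitor of thioredoxin, fell from 584 ± 49.7 to 407 ± 21.0 FPKM, at a log2 fold change of −0.52 and an adjusted p of 0.00196 in limma and holds an 8mer. SESN1 fell by 0.37 on the log2 scale (limma adjusted p = 0.0282), a call that held without replicate 2 of either group and was lost with each of the other four libraries left out (0.0739 to 0.0835).

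Of 20 other NRF2 targets and NADPH genes, 4 fell (20%, against 16.8% of all genes) and 5 rose (25%, against 23.9%). Of the export pumps for glutathione conjugates, ABCC2 was at 1.63 ± 0.159 against 3.05 ± 0.0720 FPKM and ABCC3 at 0.884 ± 0.115 against 0.252 ± 0.0237 FPKM (SD, n = 3). The log2 fold changes were −0.63 and 0.59, with adjusted p of 0.000687 and 0.000484 in limma, and the ratios of means were 0.533 and 3.51. ABCC1, also such a pump, did not pass (log2 fold change −0.02, limma adjusted p = 0.841). The transcript listed for ABCC3 has 656 bases. IDH2, the mitochondrial NADP-dependent isocitrate dehydrogenase, fell (log2 fold change −0.39, limma adjusted p = 0.00139), as did EPHX1, an epoxide hydrolase (−0.25, 0.0173), whose call was lost without miR-204-5p mimics replicate 1 (0.0511). AKR1A1, an aldehyde reductase, rose by 0.54 (limma adjusted p = 0.000209), in the opposite direction to the 4 aldo-keto reductases that fell. TRIM16L rose by 0.29 (limma adjusted p = 0.000700), and how fragments were divided between it and its close copy TRIM16 is not given.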

How the data were processed

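Libraries of total RNA from UM-SCC1 cells were prepared with a TruSeq kit and read on the HiSeq X platform. The FPKM values were computed by the authors, 1 per gene and library, with 1 listed transcript per gene. The submitters' processing notes name HISAT2, StringTie and hg38, with no version, and the strandedness of the kit is not given in the sources used here. The deposited table also holds the authors' own log2 ratios, p-values and adjusted p-values between the groups, which were not used. It holds no counts. Depth was inferred from low FPKM values as multiples of a step: 25.2% to 30.7% were whole within 0.03, against 5.03% to 5.77% at the median step, so fragment numbers are estimates and no count test was run. Fragment numbers take the listed transcript length of each gene, and whether FPKM was computed on that length is not given.

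FPKM values as deposited were compared on the log2(FPKM + 1) scale in R 4.3.3 with lmFit and trended eBayes of limma 3.58.1, two-sided, without filter or further scaling, with Benjamini-Hochberg adjustment over 14959 genes at 0.05. The design named this test because edgeR, used by the authors, needs counts. On simulated data of 14959 genes, 92 of 100 genes changed by 1 on the log2 scale and 67 of 100 changed by 0.5 were called, with 9 false calls. Only 200 genes were changed there, with independent normal noise, while 6098 passed in the data. These rates therefore need not hold for the comparison itself. The smallest p of an exact permutation test of 3 against 3 libraries is 0.1, so none was used. Python 3.11.15, numpy 2.4.6, pandas 2.3.3, scipy 1.17.1 and matplotlib 3.10.9 served the other steps. Seed matches, exons and copies come from GENCODE 29 on GRCh38, and all 43 members have the same coordinates there as in the table. SOD2 has 2 rows, and the row with the higher FPKM was taken.

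The members, the lists and the alternatives were chosen with earlier results of these data known. All members could be named, and of the other pathway genes at most 3 in each direction and group with the largest log2 fold changes among those that passed. MAFF and ABCC1, which did not pass, were named beside genes of their families. Alternatives were a pseudocount of 0.1, the replicate number as a block, only genes of mean FPKM 1 or more, equal sums, equal medians, quantile normalization, no trend, and each library left out in turn, with all annotated 3'UTRs for the seed matches and looser letters for the promoters.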

Additional observations from a re-analysis of the deposited data

How the results depend on the processing

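None of the 21 members that passed the test changed direction under any of the 13 alternatives, and 14 of them passed under every one. Quantile normalization moved the median log2 fold change of the members from −0.11 to −0.16, and leaving out single libraries gave −0.12 to −0.032 (the latter without miR-204-5p mimics replicate 3). With single libraries left out, 15 to 19 members passed, 10 to 13 lower and 5 to 8 higher (5 higher without miR-204-5p mimics replicate 2 or control mimics replicate 2), and 4971 to 5371 of all genes passed. Equal sums, equal medians and quantile normalization cost the call of HMOX1 (limma adjusted p 0.107, 0.062 and 0.062) but raised the members that passed from 21 to 24, 23 and 23 (17, 16 and 16 lower, 7 higher each). All genes that passed went from 2520 lower and 3578 higher to 2885 and 3080, 2758 and 3343, and 3026 and 3043. Calls as lower were gained by TXN and SQOR under all 3 scalings, by GCLC under equal sums and equal medians, and by GPX3 under equal sums and quantile normalization. Among genes of mean FPKM 1 or more TXN (0.0402) and SQOR (0.0414) passed, and SQOR also did with a pseudocount of 0.1 (0.0479). The looser promoter letters were found in 18 of 36 members against 9, since they contain the stricter ones. All annotated 3'UTRs gave 8 members with a seed match against 7.

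With the replicate number as a block, 17 members and 5096 of all genes passed, 16 of the 17 being among the 21, and HMOX1, GCLM, PRDX2, FTL and OSGIN1 did not pass, while GPX3 did (0.0443). The deviations of same-numbered libraries correlated at −0.040, −0.021 and −0.108 over 11504 genes. These values show no effect shared by same-numbered libraries, but cannot tell whether such libraries were made together.

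Reversals of direction were found among 10 of the 22 members that had not passed. Under equal sums, equal medians and quantile normalization the log2 fold changes were −0.025, −0.0051 and −0.0064 for CBR1, −0.038, −0.018 and −0.029 for PRDX5 and −0.034, −0.013 and −0.021 for SOD1, and quantile normalization gave −0.020 for PRDX1. With single libraries left out the ranges were −0.50 to 0.20 for NFE2L2, −0.084 to 0.19 for CBR1, −0.047 to 0.034 for AKR1B1, −0.089 to 0.37 for TXNRD1, −0.012 to 0.027 for PRDX5, −0.22 to 0.0019 for GPX2, −0.19 to 0.022 for GSTP1, −0.053 to 0.020 for PGD and −0.021 to 0.064 for SOD1. The cause of these changes was not tested. Members under 1 FPKM (GPX2, GPX3 and MGST1) rest on few fragments.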
